A study of Mus musculus with 12 samples.

Results

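The genes described here are 57 mouse genes that act in the G2 phase and mitosis of the cell cycle, from entry into mitosis to the splitting of the cell. They were taken by name from a table of raw read counts. All 57 were found among its 55315 gene rows, and all 57 passed the filter on low counts that left 16677 genes for testing. They were read in epidermal cells of mouse skin wounds on day 3 after wounding. Live cells carrying Epcam and integrin alpha6 were sorted from a ring of 0.25 mm next to the wound. The sort left out cells stained for CD45 (leukocytes), CD31 (endothelium) or CD117 (Kit). It used integrin alpha5 to part the migrating tongue (A5-positive) from the rest of the wound edge (A5-negative). The mice were wild type (WT) or RORgt deficient, and the sample titles of the deficient animals read GFP-KI, a knock-in of green fluorescent protein. RORgt is a transcription factor of lymphocytes that make interleukin-17, and the labels name no Cre or promoter that would limit its loss to a cell type. Each of the 4 groups (WT A5-negative, WT A5-positive, RORgt-deficient A5-negative, RORgt-deficient A5-positive) had 3 libraries, each from a pool of 2 or 3 mice, numbered 1 to 3. No age, sex or strain of the mice is stated in the sources at hand.

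A cell that has copied its DNA enters mitosis when cyclin B and the kinase Cdk1 become active, together with the kinases Plk1, Aurora A and Aurora B. Chromosomes condense, their kinetochores attach to spindle microtubules under the watch of the spindle checkpoint, and the anaphase-promoting complex then releases the sister chromatids. The central spindle and a contractile ring finally divide the cell. Many of these genes are transcribed mostly in G2 and mitosis, through promoters read by the MuvB complex with B-Myb and FoxM1 and by the CCAAT factor NF-Y, so their RNA is widely used as a mark of dividing cells. In healing skin, epidermal cells at and behind the wound margin divide while those of the leading front migrate.

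The libraries held 29293687 to 74563616 counts, and no member had fewer than 53 counts in a library. Levels are given as CPM, counts scaled to a common library size with TMM factors (trimmed mean of M-values). Itga5, the gene of the sorted integrin, ranged over 42.2 to 61.3 CPM in A5-negative libraries, below every A5-positive library (85.1 to 137 CPM). The keratinocyte genes Krt5 (9120 to 28400 CPM), Krt14 (12200 to 40600 CPM) and Epcam (344 to 1000 CPM) were high in every library. Of 10 T cell markers Trac, Lck, Thy1 and Itgae were at 0 in no library, Cd3e in 4 and Cd3d in 11, and the list summed to 4.48 to 18.5 CPM. Of its 4 testable markers 2 rose in A5-positive cells on average, Lck (1.41 ± 0.27, edgeR, adjusted p = 0.00518) and Thy1 (0.99 ± 0.30, adjusted p = 0.0414), which the fibroblast list also holds. RORgt-deficient replicate 2 stood low for the division genes in both fractions. The median genotype changes, the genotype counts without overlap and the order of group means are therefore also given without it. The genotype sign counts, counts at an unadjusted p and role medians are given with it only.

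Cell-division genes were higher in A5-positive than in A5-negative cells of both genotypes. The summed level of the 57 members was 1350, 1200 and 1130 CPM in WT A5-negative replicates 1 to 3 and 3130, 2750 and 2580 CPM in WT A5-positive replicates 1 to 3. In RORgt-deficient mice the A5-negative replicates 1 to 3 had 1110, 777 and 945 CPM, and the A5-positive replicates had 2780, 1830 and 2910 CPM. Every A5-positive library lay above every A5-negative library. Within same-numbered pairs the A5-positive sum was 2.31, 2.29 and 2.28 times the A5-negative sum in WT and 2.5, 2.36 and 3.08 times in RORgt-deficient mice. The ratio thus varied little between the 3 WT pairs, while the sums themselves differed between replicates.

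**Figure D1:**
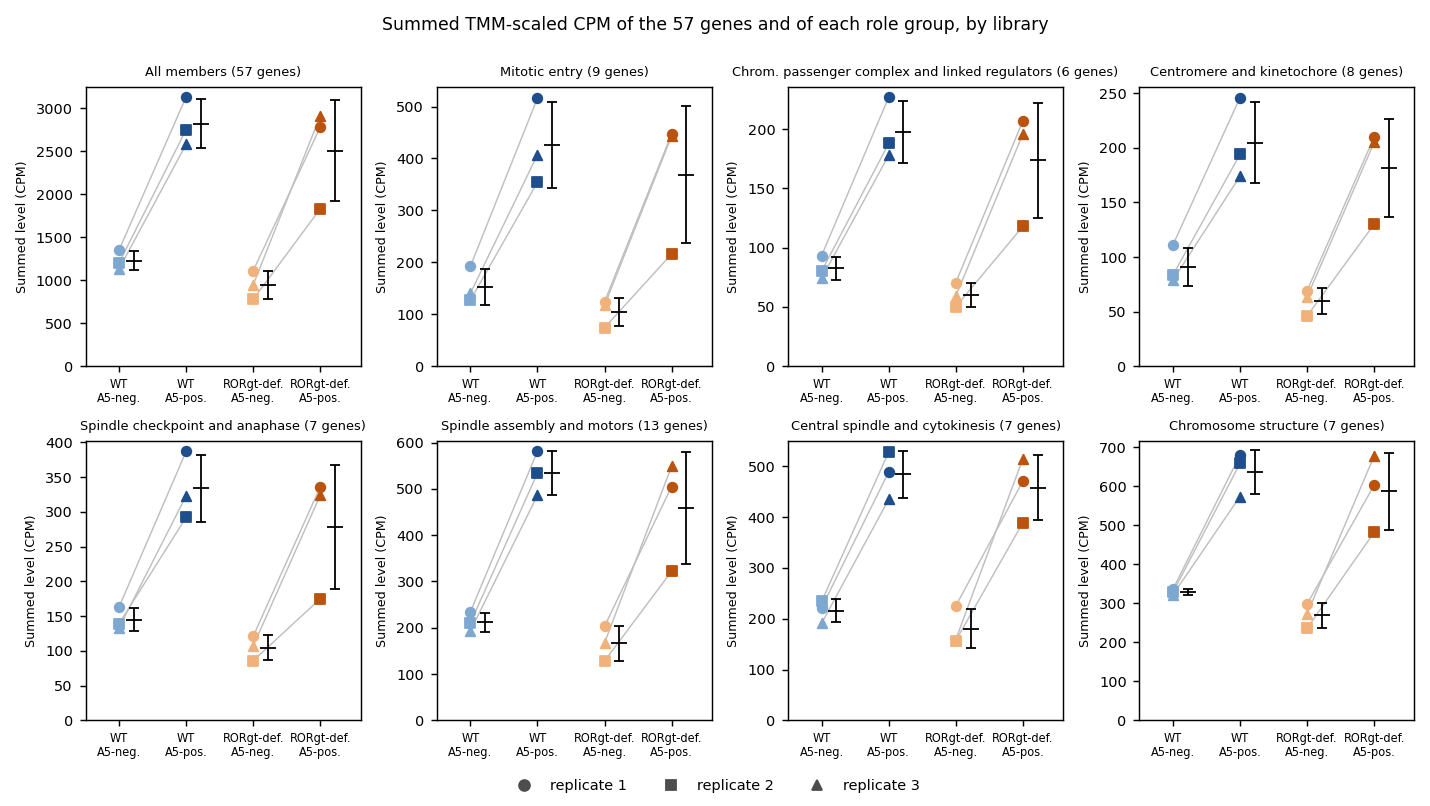
Summed level in CPM (vertical axes, starting at 0) of all 57 genes and of each of the 7 role groups in the 12 libraries. Symbols mark replicates 1, 2 and 3, grey lines join same-numbered libraries of a genotype, and black bars give the mean ± SD (n = 3). Over all members the A5-positive libraries lie between 1830 and 3130 CPM and the A5-negative libraries between 777 and 1350 CPM, and RORgt-deficient replicate 2 (squares) is the lowest of its group in both fractions.

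By gene, 47 of the 57 members rose in WT A5-positive cells and 0 fell (edgeR quasi-likelihood test, Benjamini-Hochberg adjusted p under 0.05), where 3.12% of all genes tested rose and 0.33% fell. In RORgt-deficient mice 55 rose and 0 fell, against 4.56% and 0.965% of all genes. Averaged over genotypes 55 rose and 0 fell, against 11.9% and 6.35%. The median log2 change of the members was 1.32 in WT and 1.55 in RORgt-deficient mice, and that of all genes was 0.03 and 0.00. In both genotypes 47 members passed (2.42% of all genes did), 8 passed in RORgt-deficient mice only and 0 in WT only. The test of the difference between the genotypes, the interaction, called 0. A fit with the replicate number as a block called 55 members higher in WT (8.76% of all genes) and 55 in RORgt-deficient mice (10.1%). The numbers were taken as a pairing because same-numbered libraries deviated together from their group means. Without the block the WT count was 23 without WT A5-negative replicate 2, 12 without WT A5-negative replicate 3 and 24 without WT A5-positive replicate 1. With the block it stayed between 46 and 55 whichever library was left out. The share of all genes called in these leave-out fits was not taken.

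The rise was shared by nearly all members rather than carried by a few. For 55 members all 3 A5-positive libraries lay above all 3 A5-negative libraries in WT, and likewise for 55 in RORgt-deficient mice (15.9% and 14.3% of all genes). For 55 members A5-positive exceeded A5-negative in all 6 same-numbered pairs (18.4% of all genes). The log2 change averaged over genotypes was at least 1 for 50 members (6.88% of all genes) and under 0.5 for 2, Ttk and Pttg1. All 57 members had a WT change above 0, as did 52.1% of all genes, with a range from 0.03 for Pttg1, whose sign turned under other scalings, to 2.02 for Plk1. In a bulk library a higher level can mean more cells in G2 and mitosis or more RNA per such cell, and these cannot be told apart.

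**Figure D2:**
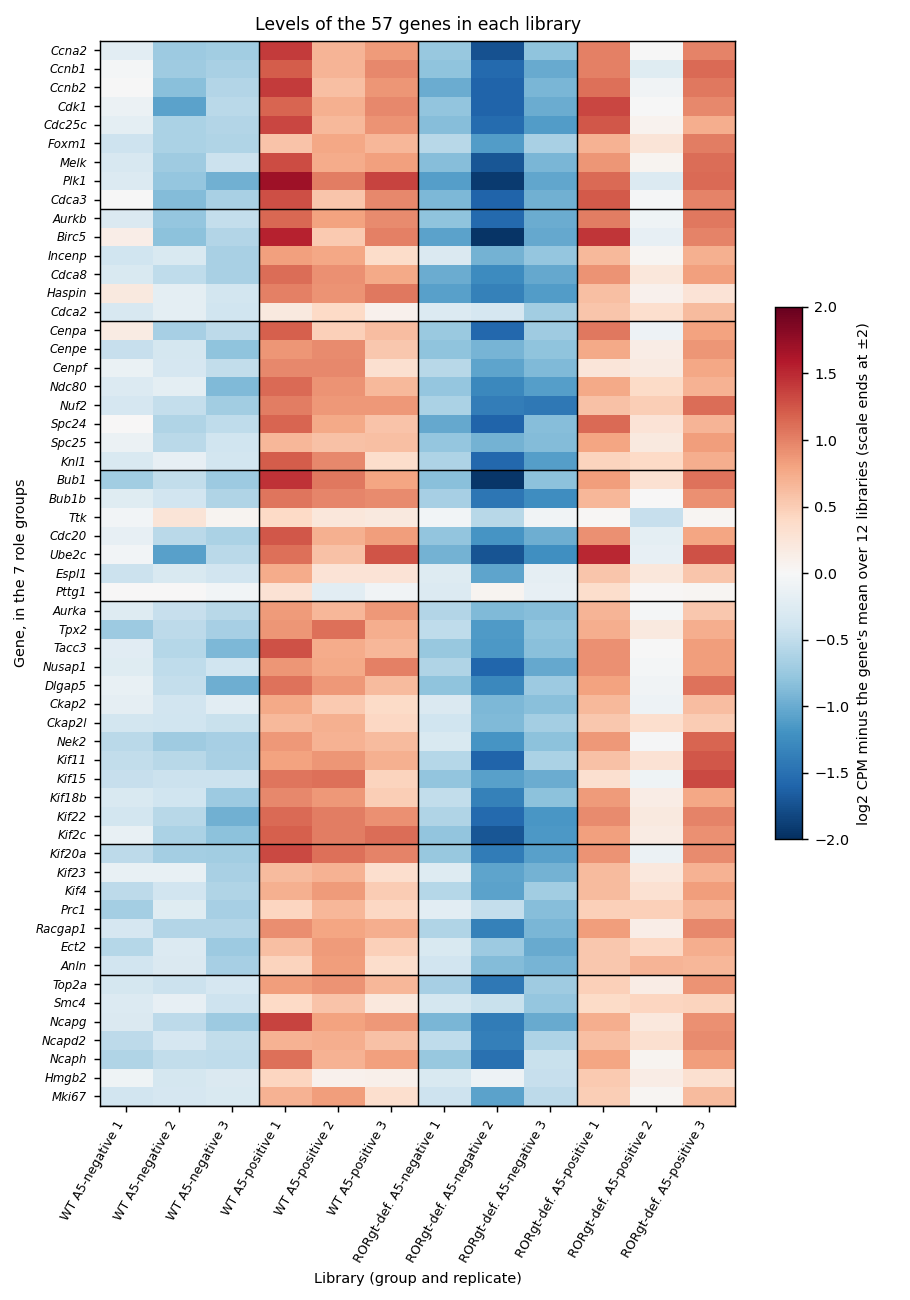
Level of each of the 57 genes (rows, in the 7 role groups) in each of the 12 libraries (columns), as log2 CPM minus the mean of that gene over the 12 libraries. Red is above and blue below the gene's mean, from -1.96 to 1.7. Most rows are red in A5-positive and blue in A5-negative libraries, while RORgt-deficient A5-positive replicate 2 is paler, with 20 genes below their mean.

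Genes of mitotic entry had the highest median change, 1.44 in WT and 1.90 in RORgt-deficient mice, and all 9 passed in each genotype. They encode the cyclins (Ccna2, Ccnb1, Ccnb2), Cdk1, its activating phosphatase Cdc25c, the kinases Plk1 and Melk, the transcription factor Foxm1 and Cdca3, a trigger of mitotic entry. Plk1 (GRCm38 chromosome 7, 122159439 to 122169873), the Polo kinase of centrosomes and kinetochores, had 12.7, 9.04 and 7.88 CPM in WT A5-negative and 50, 31.2 and 39.5 CPM in WT A5-positive libraries. In RORgt-deficient mice it had 7.2, 4.07 and 7.52 CPM in the A5-negative libraries, against 33.8, 12.7 and 33.7 CPM. The groups did not overlap in either genotype, and replicate 2 was the low library of both RORgt-deficient fractions. The average rise of Plk1 was 2.06 ± 0.26 on the log2 scale (edgeR quasi-likelihood, adjusted p = 0.000319), higher in 6 of 6 pairs and the largest of the 57.

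Cdk1 (chromosome 10, 69335146 to 69352938), the kinase that starts mitosis, had 19.8, 10.2 and 14.8 CPM in WT A5-negative and 48.5, 35.2 and 42.1 CPM in WT A5-positive libraries. In RORgt-deficient mice it had 12.5, 7.1 and 10.8 against 54.1, 21.3 and 41.8 CPM. Replicate 2 was the lowest of each group, and no A5-positive library fell into the A5-negative range of its genotype. Cdk1 rose on average by 1.72 ± 0.24 (edgeR, adjusted p = 0.00064), a call that ended when all 4 libraries numbered 3 were left out without the block (0.0521). Its call within WT (1.49 ± 0.34, adjusted p = 0.0334) ended in 10 of the unblocked fits with libraries left out, where the adjusted p reached 0.34. Foxm1 (chromosome 6, 128362967 to 128376146), an activator of genes of this class, had the smallest rise of the role, 1.33 ± 0.14 (adjusted p = 7.48e-05). It had 26.4, 22.9 and 23.3 against 52.4, 60.2 and 55.8 CPM in WT and 24.2, 16.3 and 22.5 against 57.2, 42.4 and 71.5 CPM in RORgt-deficient mice. Relative to their mean, its 3 libraries of a group lay closer together than those of Cdk1 or Plk1. The 6 others of this role had average changes from 1.62 for Ccnb1 to 1.69 for Cdca3.

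The chromosomal passenger complex corrects faulty attachments and later helps to build the central spindle. Of its 6 genes and linked regulators 4 rose in WT (median 1.27) and 6 in RORgt-deficient mice (median 1.64). Birc5 (chromosome 11, 117849251 to 117855743), which encodes survivin, had 15.1, 7.85 and 9.22 CPM in WT A5-negative and 40.4, 19.9 and 27.7 CPM in WT A5-positive libraries. Its levels were 6.61, 3.55 and 6.79 against 37.2, 12.4 and 27.5 CPM in RORgt-deficient mice. Replicate 1 was highest and replicate 2 lowest in both WT fractions. The spread between replicates kept the WT change of 1.45 ± 0.41 above the threshold (edgeR, adjusted p = 0.0789), while the replicate block gave 1.44 ± 0.19 (adjusted p = 0.00129). On average Birc5 rose by 1.82 ± 0.30 (adjusted p = 0.00178, and 0.0728 without all libraries numbered 3).

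Aurkb (chromosome 11, 69045647 to 69051664), the kinase of the complex, rose on average by 1.65 ± 0.20 (edgeR, adjusted p = 0.000272). It had 15.1, 10.8 and 13.3 against 40.8, 32.2 and 35.7 CPM in WT and 10.6, 6.27 and 9.3 against 37.7, 17.3 and 38.2 CPM in RORgt-deficient mice, with no overlap between fractions. Cdca2 (chromosome 14, 67676331 to 67715841), a targeting subunit of protein phosphatase on chromatin at mitotic exit, rose least, by 0.74 ± 0.12 (adjusted p = 0.00155, and 0.0641 without all libraries numbered 3). It had 9.32, 10.1 and 8.77 against 13.3, 15.3 and 12.3 CPM in WT and 9.59, 9.14 and 7.17 against 17.1, 14.6 and 18 CPM in RORgt-deficient mice. The fractions stood apart in both genotypes, by a narrower gap in WT. The WT change of 0.54 ± 0.17 did not pass (adjusted p = 0.101) and passed with the block (0.0434). Incenp, the scaffold (average 1.13), and Cdca8, which encodes borealin (1.59), passed in both genotypes, as did Haspin, a histone H3 kinase that guides the complex to centromeres (1.3).

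Centromere and kinetochore genes rose in 7 of 8 cases in WT (median 1.18) and in all 8 in RORgt-deficient mice (median 1.60). Nuf2 and Spc24 encode subunits of the Ndc80 complex, which holds microtubules. Nuf2 (chromosome 1, 169497934 to 169531464) had 7.78, 7.03 and 6.05 CPM in WT A5-negative and 20, 18 and 18 CPM in WT A5-positive libraries. In RORgt-deficient mice it had 6.34, 3.75 and 3.65 against 14.7, 13.8 and 21.2 CPM. The WT libraries of each fraction lay close together. The average rise of Nuf2 was 1.63 ± 0.17 (edgeR, adjusted p = 8.22e-05).

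Spc24 (chromosome 9, 21755442 to 21760303) rose by 1.53 ± 0.19 on average (edgeR, adjusted p = 0.000305). It had 14.9, 9.83 and 10.5 against 33.3, 25.3 and 22.1 CPM in WT and 7.29, 4.9 and 8.25 against 32.8, 17.9 and 23.9 CPM in RORgt-deficient mice, and replicate 1 was the highest A5-positive library of both. Its WT call (1.2 ± 0.27, adjusted p = 0.0335) also ended in 10 of the unblocked fits with libraries left out. Cenpf (chromosome 1, 189640606 to 189688086), a large protein of the outer kinetochore, rose least, by 1.17 ± 0.16 (adjusted p = 0.000664). Its levels were 10.3, 9.01 and 8.08 against 22.2, 22.2 and 14.2 CPM in WT and 7.73, 5.47 and 6.13 against 13.5, 12.8 and 19.5 CPM in RORgt-deficient mice. Replicate 3 was the lowest A5-positive library in WT and the highest in RORgt-deficient mice, and the WT call (1.1 ± 0.23, adjusted p = 0.0243) ended in 7 fits with libraries left out, and in 5 with the block. The centromeric histone gene Cenpa was the member of this role that did not pass in WT (1.09 ± 0.34, adjusted p = 0.101), and it passed with the block (0.0029). Ndc80 (average 1.49), Spc25 (1.23), the scaffold gene Knl1 (1.37) and the kinesin gene Cenpe (1.4) passed in both genotypes.

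The spindle checkpoint and anaphase genes were the one role with members that did not move. Of 7, 3 rose in WT and 5 in RORgt-deficient mice, with medians of 1.38 and 1.55. Bub1 (chromosome 2, 127801122 to 127831865), a checkpoint kinase, had 6.22, 7.15 and 6.08 CPM in WT A5-negative and 27.6, 21 and 17.4 CPM in WT A5-positive libraries, and 5.66, 2.63 and 5.71 against 18.1, 12.4 and 21.5 CPM in RORgt-deficient mice. Even the lowest A5-positive library had more than every A5-negative library. Bub1 rose on average by 1.83 ± 0.21 (edgeR, adjusted p = 0.000175).

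Ube2c (chromosome 2, 164769898 to 164778822), the ubiquitin-conjugating enzyme of the anaphase-promoting complex, had 25.1, 12.3 and 18 CPM in WT A5-negative and 55.9, 39.3 and 62.5 CPM in WT A5-positive libraries. In RORgt-deficient mice it had 13.6, 7.88 and 11.1 against 74, 23.3 and 63 CPM. Replicate 2 was low in all 4 groups. The average rise of Ube2c was 1.90 ± 0.28 (edgeR, adjusted p = 0.000912, and 0.0674 without all libraries numbered 3). The WT change of 1.51 ± 0.39 passed with the block (adjusted p = 0.00124) and missed the threshold without it (0.0587). Its exons share 22.77% of their bases with Tnnc2 on the other strand, and the strand setting of the counting is not stated.

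Ttk (chromosome 9, 83834689 to 83872389), the checkpoint kinase also called Mps1, did not follow the rest. It had 14.7, 18.2 and 15.9 CPM in WT A5-negative and 20.1, 17.9 and 17.4 CPM in WT A5-positive libraries. In RORgt-deficient mice it had 14.7, 10.4 and 14.5 against 15.5, 11.1 and 15.7 CPM. The groups overlapped in both genotypes. The change was 0.18 ± 0.18 in WT (edgeR, adjusted p = 0.595) and 0.09 ± 0.19 in RORgt-deficient mice (adjusted p = 0.795).

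Pttg1 (chromosome 11, 43420250 to 43426251), which encodes securin, the inhibitor of separase, was flat as well. Its levels were 12.2, 12.2 and 11.7 CPM in WT A5-negative, 14.9, 10.5 and 11.6 CPM in WT A5-positive, 10, 12.6 and 10.9 CPM in RORgt-deficient A5-negative and 15.5, 12.3 and 12.5 CPM in RORgt-deficient A5-positive libraries. The groups overlapped in both genotypes, and WT A5-positive replicate 2 was the lowest of the 6 WT libraries. The change was 0.03 ± 0.17 in WT (edgeR, adjusted p = 0.928) and 0.26 ± 0.17 in RORgt-deficient mice (adjusted p = 0.392). Espl1, which encodes separase itself, rose by 0.90 ± 0.22 in RORgt-deficient mice (adjusted p = 0.0347) and had 0.82 ± 0.22 in WT (adjusted p = 0.0674, and 0.0198 with the block). Bub1b, a checkpoint kinase relative (average 1.53), and Cdc20, the mitotic activator of the anaphase-promoting complex (1.47), passed in both genotypes.

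Spindle assembly factors and motors rose in 12 of 13 cases in WT (median 1.36) and in all 13 in RORgt-deficient mice (median 1.54). Kif2c (chromosome 4, 117159639 to 117182639), a kinesin that takes microtubules apart at centromeres, had 15.9, 11.3 and 10 CPM in WT A5-negative and 40.4, 35.7 and 38.1 CPM in WT A5-positive libraries. It had 10.2, 5.38 and 7.9 against 31.2, 19.7 and 33 CPM in RORgt-deficient mice. Replicate 2 was again lowest in both RORgt-deficient fractions, and within each genotype the fractions did not overlap. Kif2c rose by 1.72 ± 0.19 on average (edgeR, adjusted p = 9.91e-05).

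Kif22 (chromosome 7, 127027729 to 127042471), a kinesin that pushes chromosome arms, rose to the same extent, by 1.72 ± 0.19 (edgeR, adjusted p = 0.000108). It had 17.2, 15.1 and 11.4 against 49, 45.3 and 42.1 CPM in WT and 14.7, 7.62 and 10 against 42.8, 25.5 and 44.5 CPM in RORgt-deficient mice, with the fractions apart in both. Ckap2 (chromosome 8, 22168160 to 22185819), a spindle microtubule protein, rose least, by 0.94 ± 0.16 (adjusted p = 0.00204, and 0.0762 without all libraries numbered 3). Its levels were 18.2, 15.8 and 17.7 against 34.6, 29.5 and 26.9 CPM in WT and 16.8, 11 and 11.5 against 32.1, 19.1 and 31.5 CPM in RORgt-deficient mice. In WT it missed the threshold without the block (0.82 ± 0.22, adjusted p = 0.0671) and passed with it (0.0108). The 10 others, which include Aurora A (Aurka), its activator Tpx2, Tacc3 and the spindle motor Kif11, passed in both genotypes with average changes from 1.04 for Ckap2l to 1.5 for Tacc3.

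Central spindle and cytokinesis genes rose in 6 of 7 cases in WT (median 1.16) and in all 7 in RORgt-deficient mice (median 1.34). Kif20a (chromosome 18, 34624613 to 34633277), a kinesin of the midzone, had 19, 17.1 and 17 CPM in WT A5-negative and 68.2, 58.9 and 54.7 CPM in WT A5-positive libraries. Its RORgt-deficient levels were 16.3, 10.4 and 12.9 against 51.1, 25.3 and 53 CPM. The WT libraries of each fraction were close together, and RORgt-deficient A5-positive replicate 2 had under 30 CPM while its neighbours had over 50 CPM. Kif20a rose by 1.74 ± 0.18 on average (edgeR, adjusted p = 7.48e-05). Of its exon bases 29.3% are shared with Cdc23 on the other strand.

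Racgap1 (chromosome 15, 99620496 to 99651656), a subunit of centralspindlin, had 48.3, 40.5 and 40.5 against 116, 105 and 101 CPM in WT and 40, 23.8 and 32.2 against 109, 66.6 and 118 CPM in RORgt-deficient mice. Its fractions did not overlap in either genotype. The average change was 1.47 ± 0.16 (edgeR, adjusted p = 9.91e-05). Prc1 (chromosome 7, 80294450 to 80316259), which bundles the microtubules of the midzone, rose least, by 1.03 ± 0.13 (adjusted p = 0.00024), and its RORgt-deficient replicate 2 was not the low library. It had 29.6, 40.2 and 30 against 63.8, 75 and 63.5 CPM in WT and 41, 34.2 and 26.2 against 65.9, 66.2 and 76.3 CPM in RORgt-deficient mice. Kif23, the motor of centralspindlin, had a WT change of 0.86 ± 0.23 (adjusted p = 0.0624, and 0.0169 with the block). The kinesin gene Kif4 (average 1.28), Ect2, which acts at the division plane (1.18), and Anln, the ring scaffold anillin (1.16), passed in both genotypes.

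Genes of chromosome structure rose in 6 of 7 cases in WT (median 1.12) and in all 7 in RORgt-deficient mice (median 1.43). Ncapg (chromosome 5, 45669919 to 45700546), a subunit of condensin, had 12.8, 10.8 and 9.45 CPM in WT A5-negative and 39.8, 27.1 and 28.5 CPM in WT A5-positive libraries. In RORgt-deficient mice it had 8.31, 5.9 and 7.74 against 25.7, 18 and 29.4 CPM. Within each genotype the fractions did not overlap. Ncapg rose by 1.63 ± 0.16 on average (edgeR, adjusted p = 5.15e-05). Ncaph (chromosome 2, 127103809 to 127133954), the kleisin of the same complex, rose by 1.43 ± 0.18 (adjusted p = 0.000328). It had 15.8, 17 and 16.9 against 51.4, 38.8 and 42.1 CPM in WT and 14.1, 8.48 and 17.5 against 41.2, 24.9 and 42.8 CPM in RORgt-deficient mice, where replicate 2 was the low library of each fraction.

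Hmgb2 (chromosome 8, 57511907 to 57515999), a chromatin protein that is abundant in dividing cells, had the smallest change among the 55 that rose. Its levels were 84.7, 70.7 and 73.6 against 122, 95.6 and 96.9 CPM in WT and 72.7, 84 and 65.2 against 130, 99.7 and 113 CPM in RORgt-deficient mice. The average change was 0.54 ± 0.11 (edgeR, adjusted p = 0.00565), and the call ended without all libraries numbered 1 (0.0526) or 3 (0.124) where no block was fitted. In WT Hmgb2 passed with the block only (0.46 ± 0.15, adjusted p = 0.12, and 0.0321 with the block). Top2a, the topoisomerase of mitotic chromosomes (average 1.31), Mki67, the gene of the Ki-67 antigen (1.02), and the condensin genes Ncapd2 (1.27) and Smc4 (0.81) passed in both genotypes.

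**Figure D3:**
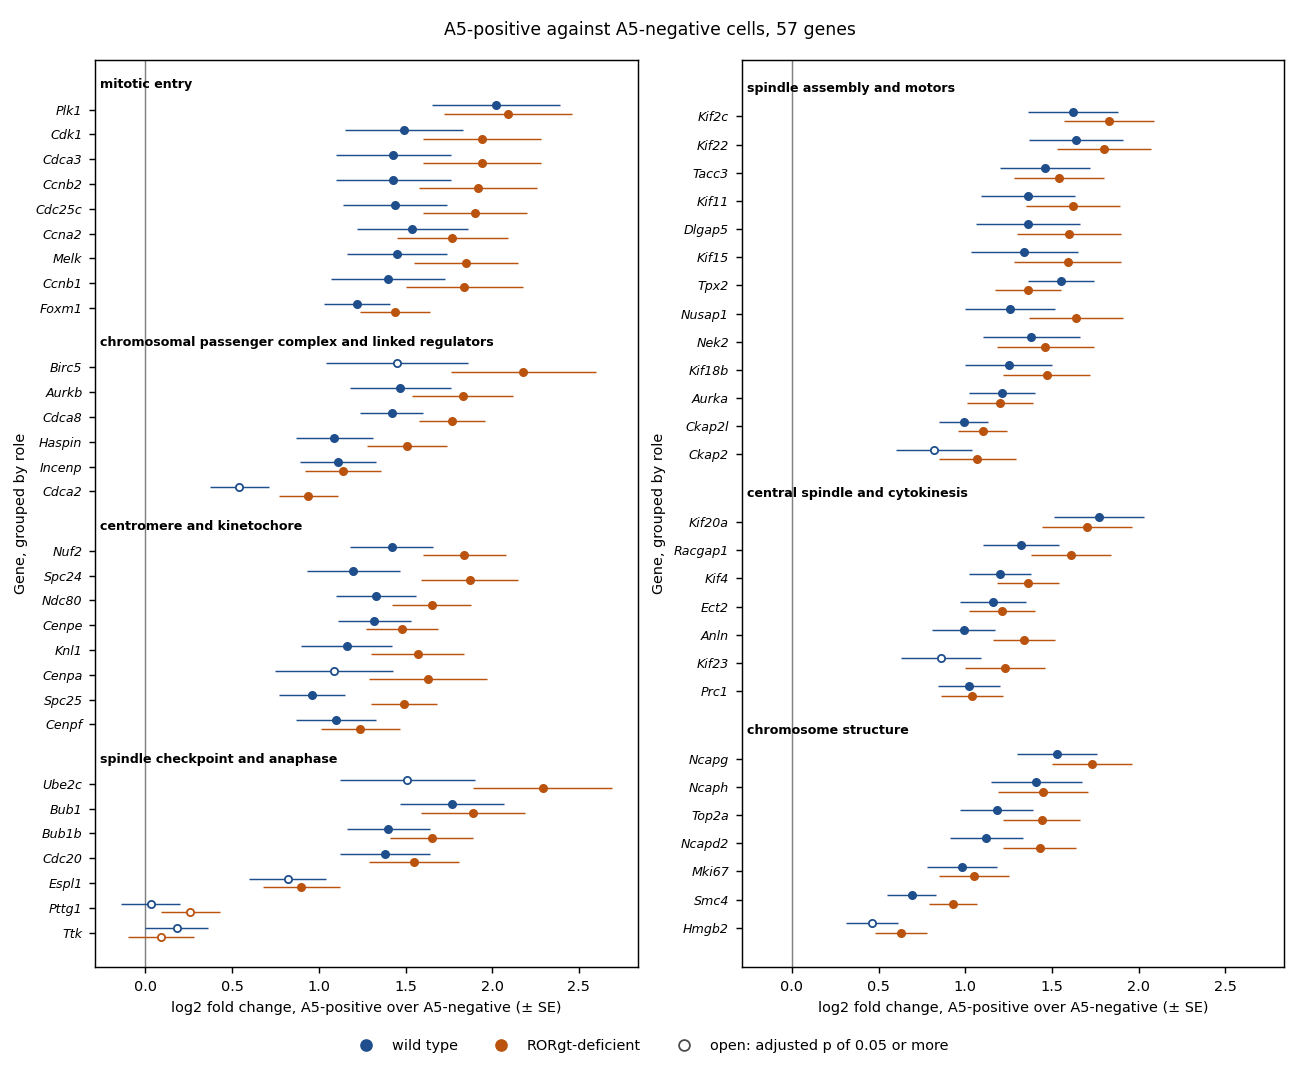
Log2 fold change of A5-positive over A5-negative cells (horizontal axis, ± SE) for each of the 57 genes in WT (blue) and RORgt-deficient mice (orange), grouped by role. Filled points have an adjusted p under 0.05 (47 genes in WT and 55 in RORgt-deficient mice), and Ttk and Pttg1 sit near 0 in both.

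Levels compared between genes per kilobase of exon, as means over the 12 libraries, spanned from 0.815 CPM per kilobase for Cenpf to 46 for Cdc20. Hmgb2 (30.8), Ccnb2 (24.5) and Tacc3 (14.4) were next to Cdc20 at the upper end, and Kif15 (1.08) and Knl1 (1.15) were next to Cenpf at the lower end. The genes that did not rise, Ttk (3.15 CPM per kilobase) and Pttg1 (6.12), lay within this span. The exon lengths include all annotated exons of a gene, so the order is approximate.

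The genotype comparison asked whether division genes depend on RORgt, the factor of interleukin-17-producing lymphocytes. In A5-negative cells members tended to be lower in RORgt-deficient than in WT mice, and no member passed the test. The summed level was 1350, 1200 and 1130 CPM in WT and 1110, 777 and 945 CPM in RORgt-deficient A5-negative replicates 1 to 3, so that the groups did not overlap. In same-numbered pairs the RORgt-deficient sum was 0.822, 0.647 and 0.835 times that of WT. The median log2 change was -0.43, and 56 of 57 members had a change below 0, where 50% of all genes had one above 0. For 27 members all RORgt-deficient libraries lay below all WT libraries (8.26% of all genes). The count of members called was 0 in either direction (0% of all genes called lower and 0.006% higher, edgeR quasi-likelihood), with 0 also in the fit with the block. At an unadjusted p under 0.05 there were 14 members, all lower (2.15% of all genes), and 31 with the block (6.31%). DESeq2 called 1 member, Haspin, and voom with quality weights called 0, and the share of all genes these tools called was not taken.

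Haspin (chromosome 11, 73135485 to 73138294) is described here because of its value, outside the rule for named genes. It had 4.43, 3.39 and 3.00 CPM in WT and 1.82, 1.52 and 1.78 CPM in RORgt-deficient A5-negative libraries. In A5-positive libraries it had 7.79, 7.2 and 8.04 against 5.84, 4.11 and 4.68 CPM. It was lower in RORgt-deficient mice without overlap in both fractions. The log2 change in A5-negative cells was -1.08 ± 0.23 (edgeR, adjusted p = 0.632, 0.117 with the block, and 0.00393 by DESeq2). That in A5-positive cells was -0.65 ± 0.22 (edgeR, adjusted p = 0.227). The gene lies within Itgae on the opposite strand without shared exon bases, and Itgae had 0.38 to 2.67 CPM.

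The lower A5-negative levels were spread over the roles. The median change was -0.65 for mitotic entry, -0.60 for centromere and kinetochore and -0.59 for the passenger complex, and -0.47 for checkpoint and anaphase genes. It was smaller for spindle assembly (-0.38), chromosome structure (-0.31) and cytokinesis (-0.27). Prc1 was the member with a change above 0 (0.02 ± 0.18). Replicate 2 was the lowest RORgt-deficient A5-negative library for 49 of 57 members, as it was for 36.3% of all genes. Without RORgt-deficient replicate 2 the median change was -0.30 and 0 members were called. In that smaller comparison 28 members were lower and 1 was higher without overlap (11.8% and 11% of all genes).

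In A5-positive cells the genotype difference was smaller. The summed level was 3130, 2750 and 2580 CPM in WT and 2780, 1830 and 2910 CPM in RORgt-deficient replicates 1 to 3, and the groups overlapped. The RORgt-deficient sum was 0.889, 0.666 and 1.13 times that of WT in same-numbered pairs, so that the third pair went the other way, with 44 members higher in the RORgt-deficient library. The median log2 change was -0.19, with 46 of 57 members below 0 and 11 above (50.2% of all genes were above). No member was called (0% of all genes called lower, 0.006% higher, edgeR), as with DESeq2, voom and the block (2.26% of all genes higher and 1.76% lower with it), and 1 member, Haspin, had an unadjusted p under 0.05 (7.59% of all genes were lower at that level). With the block that number was 9 (12.2%). Levels were lower without overlap for 6 of 57 members, a share near the 9.01% of all genes. These were Haspin, Bub1b, Ttk, Tpx2, Kif2c and Kif20a, and Tpx2 was apart only by 48.6 CPM in WT against 48.5 CPM. RORgt-deficient replicate 2 was the lowest of its 3 libraries for 54 of 57 members (42.1% of all genes), and without it the median change was 0.03 with 6 members lower and 3 higher without overlap (12.2% and 14% of all genes).

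**Figure D4:**
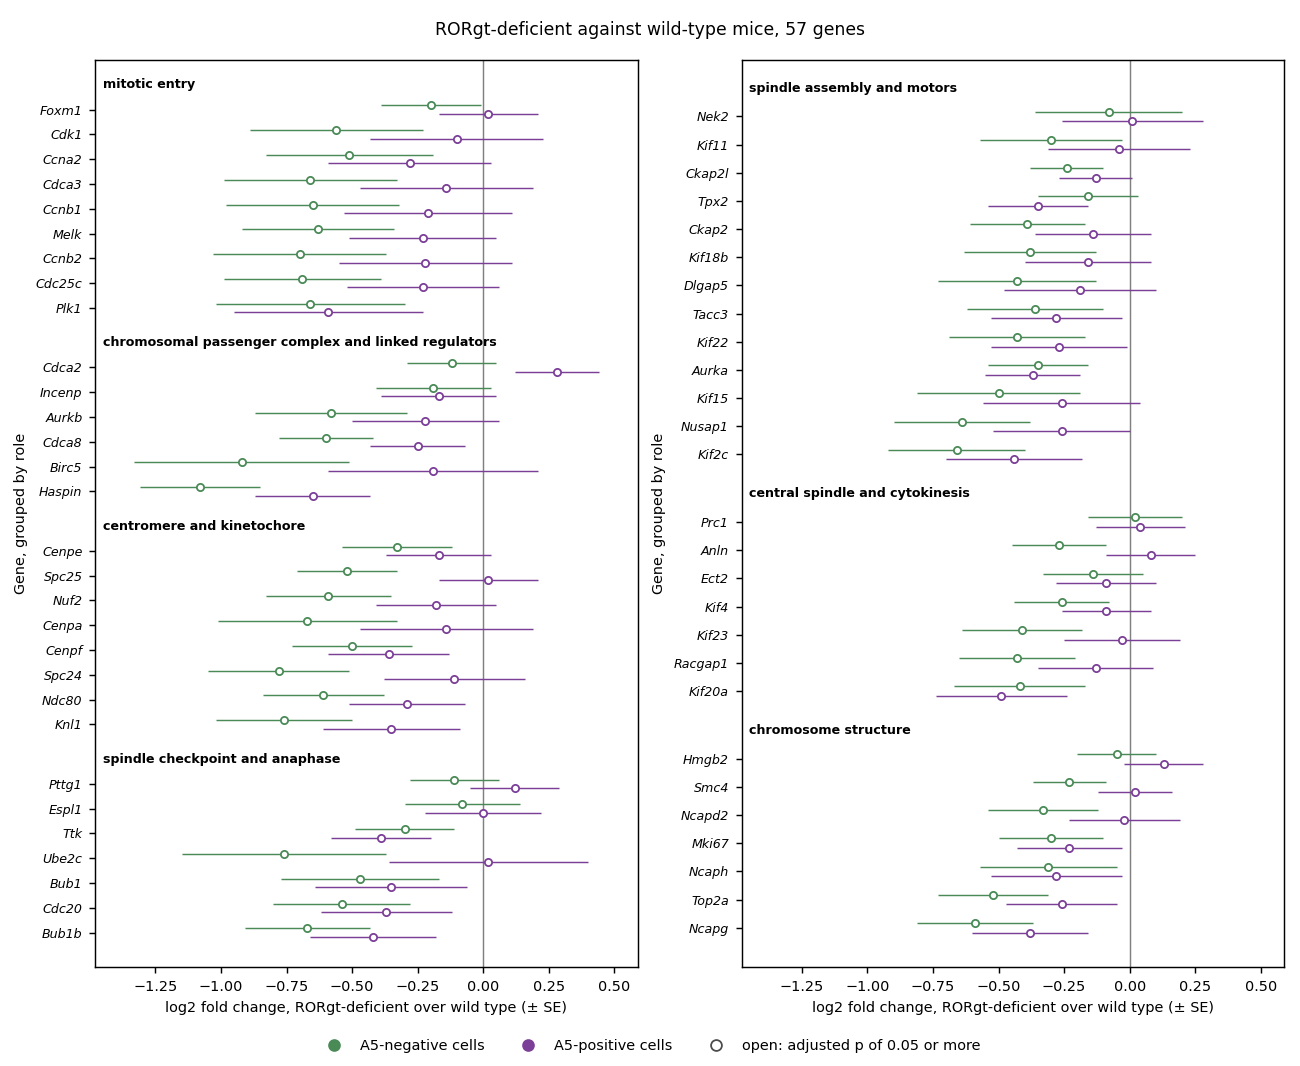
Log2 fold change of RORgt-deficient over WT mice (horizontal axis, ± SE) for each of the 57 genes in A5-negative (green) and A5-positive cells (purple), grouped by role. All points are open, since no gene had an adjusted p under 0.05, and 56 genes lie below 0 in A5-negative and 46 in A5-positive cells.

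The interaction asked whether the A5 difference depends on genotype. The difference of the 2 A5 effects (RORgt-deficient minus WT) had a median of 0.24, with 53 of 57 members above 0 (50% of all genes). No member was called (0% of all genes in either direction, edgeR), 0 had an unadjusted p under 0.05 (1.48% of all genes were higher and 1.27% lower at that level), and DESeq2 and voom called 0. With the block 4 members, all higher, had an unadjusted p under 0.05 (2.56% of all genes were higher), and 0 were called. The largest values were 0.79 ± 0.54 for Ube2c and 0.73 ± 0.58 for Birc5 (edgeR, adjusted p = 1 for each). The median was 0.08 without RORgt-deficient A5-positive replicate 3 and 0.45 without RORgt-deficient A5-positive replicate 2. This comparison uses the same libraries as the A5 and genotype comparisons, so its direction adds nothing to theirs. In order of group means, 45 of 57 members (15.3% of all genes) ran from RORgt-deficient A5-negative over WT A5-negative and RORgt-deficient A5-positive to WT A5-positive. Without RORgt-deficient replicate 2 that count was 24 (13.7%). Within a genotype the step between fractions passed for 47 (WT) and 55 (RORgt-deficient) members, and within a fraction the step between genotypes passed for 0.

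Other cell-cycle genes moved in the same direction between fractions, to a smaller extent. Of 64 further mitotic genes 26 rose in WT (median 0.96, and 49 rose with the replicate block) and 33 in RORgt-deficient mice (median 1.15), and averaged over genotypes 54 rose and 0 fell. With the block 47 rose in RORgt-deficient mice, and averaged 55 rose and 1 fell, Wee1, an inhibitory kinase of Cdk1 (-0.34 ± 0.09, edgeR, adjusted p = 0.0163, and 0.0561 without the block). The averaged rises included Shcbp1, a partner of the central spindle (1.45 ± 0.13, edgeR, adjusted p = 2.1e-05), and Cdca5, the cohesin protector sororin (1.44 ± 0.14, adjusted p = 4.62e-05). Of 40 genes of G1/S and DNA replication 17 rose in WT (median 1.05), 19 in RORgt-deficient mice (median 0.95) and 34 on average. With the replicate block these counts were 31, 28 and 37, and 1 fell on average, Slbp, which binds histone mRNA (-0.27 ± 0.07, adjusted p = 0.0142, and 0.115 without the block). Wee1 and Slbp are named because of their values. Of all 16677 genes 1980 rose and 1059 fell on average, and 3082 and 2579 with the block. The shares of all genes in the WT and RORgt-deficient fits are those given for the members above. Mcm3, a subunit of the replicative helicase, rose by 1.22 ± 0.14 (adjusted p = 0.000166), and Rrm2, of ribonucleotide reductase, by 1 ± 0.11 (adjusted p = 0.000112). The summed replication genes were 1.66 to 2.18 times higher in A5-positive libraries of WT pairs and 1.49 to 1.94 times in RORgt-deficient pairs, against 2.28 to 2.31 and 2.36 to 3.08 times for the 57 members. The differences between these lists were not tested. Between genotypes 0 genes of these lists were called, and the replication genes had medians of -0.32 in A5-negative and -0.35 in A5-positive cells.

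Among 22 regulators of G2/M transcription the median A5 change was 0.19 in WT and 0.18 in RORgt-deficient mice, and 7 rose on average (8 with the replicate block). In WT 4 rose without and 7 with the block, and in RORgt-deficient mice 4 and 5. The lowest p-values were those of Mybl2, which encodes B-Myb, the MuvB partner that turns on G2/M genes (1.44 ± 0.20, edgeR, adjusted p = 0.000563), and E2f8, a repressor of the E2F family (1.11 ± 0.13, adjusted p = 0.00021). Mybl2 had 7.57 to 11.2 CPM in WT A5-negative and 18 to 32.6 CPM in WT A5-positive libraries, and 5.27 to 8.35 against 12.8 to 23 CPM in RORgt-deficient mice. Of 9 inhibitors of cyclin-dependent kinases and antiproliferative genes 8 could be tested. On average 2 rose, Cdkn2c (0.75 ± 0.11, adjusted p = 0.000721) and Cdkn2d (0.59 ± 0.12, adjusted p = 0.00617), and 3 fell, Cdkn2b, Btg1 and Btg2 (by 0.54 ± 0.14, 0.39 ± 0.12 and 0.45 ± 0.13, adjusted p = 0.0223, 0.0417 and 0.0362). All 5 encode proteins that act against cell-cycle entry, and they moved in both directions. In WT 2 rose and 0 fell (2 and 2 with the block), and in RORgt-deficient mice 1 rose and 0 fell (2 and 1 with the block). Of all genes 11.9% rose and 6.35% fell on average, and with the block 3082 and 2579 of 16677. With the block 933 of all genes fell in WT and 1258 in RORgt-deficient mice. The other shares are those given for the members above. Between genotypes 0 genes of either list were called without the block. With it 1 regulator was lower in RORgt-deficient A5-positive cells (1.76% of all genes).

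Markers of fibroblasts and of macrophages and monocytes moved with the fractions. Of 8 Langerhans and dendritic cell markers 1 was called lower on average (2 with the replicate block). Of 4 testable neutrophil markers 1 was called lower, and of the testable endothelial, melanocyte and erythroid markers 0 were called. All 13 fibroblast markers rose on average (11.9% of all genes did), with a median of 5.48. Leaving out Postn, which had 743 to 2050 CPM in the A5-negative libraries too, the summed level of the other 12 was 69.9 to 534 CPM over the A5-negative libraries, and 3910, 6130 and 8340 CPM in WT and 15600, 10200 and 16500 CPM in RORgt-deficient A5-positive libraries, and none of them was at 0 in any library. Macrophage and monocyte markers had negative median A5 changes (-2.19 in WT and -1.55 in RORgt-deficient mice). Averaged over genotypes 6 of 12 were called lower and 9 with the replicate block, against 1059 and 2579 of all 16677 genes. Within each genotype 0 of the 12 were, with or without the block. Their sum ranged from 94.5 to 1450 CPM over the A5-negative libraries and from 93.7 to 242 CPM over the A5-positive ones, with none at 0. WT A5-negative replicate 1 had the 1450 CPM. In replicate 2 the A5-negative and A5-positive sums were close, 94.5 against 105 CPM in WT and 103 against 93.7 CPM in RORgt-deficient mice. The part of these other cells in the members' results was not tested. In same-numbered pairs the summed 13 fibroblast markers were 3.32, 4.25 and 6.85 times higher in A5-positive libraries of WT and 9.54, 14.1 and 17.8 times higher in those of RORgt-deficient mice. The ratios of the 57 members in these pairs were 2.31, 2.29 and 2.28 in WT and 2.5, 2.36 and 3.08 in RORgt-deficient mice. With Postn in the fibroblast sum, both sets of ratios were higher in every RORgt-deficient pair than in every WT pair. For the members the closest values were 2.36 against 2.31. Without Postn the A5-negative fibroblast sums of replicates 1 to 3 were 204, 90.4 and 234 CPM in WT. They were 534, 69.9 and 85.4 CPM in RORgt-deficient mice. The contrast of RORgt-deficient pair 1 was then smaller than that of WT pairs 2 and 3, so the fibroblast order rests on Postn. From WT pair 1 to 3 the fibroblast ratio with Postn went from 3.32 to 6.85 and the member ratio from 2.31 to 2.28. A link between these ratios was not tested.

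The promoters of the members are shown because the genes moved together. RefSeq promoters (GRCm38.p6) were found for 46 of the 57 members, in 48 windows, and not for the other 11. In the 250 bases before the start, TTTGAA, the common form of the element through which MuvB complexes bind G2/M promoters, stood on either strand in 39.6% of member windows and 16% of 32851 windows of all genes. Its variant TTTAAA, which reads the same on both strands and is also a common AT-rich word, stood in 12.5% and 12.1%. CCAAT, the word of NF-Y, stood on either strand in 72.9% of member windows and 33.8% of all, and at least 2 times in 47.9% and 10.1%. Either TTT word together with CCAAT stood in 43.8% and 8.78%. All 48 member windows were counted, though some RefSeq starts lie far from the GENCODE start, by 3867 bases for Kif2c and 2394 for Cdca8. A match is a description of the letters and does not show binding. The following are the 200 bases before the RefSeq start, 5′ to 3′ on the gene's strand, with these words in capitals (ATTGG is CCAAT read from the other strand). Plk1 is the member that rose most, Ncapg and Bub1 are further strong risers with different words, Nuf2 rose and holds none of the words here, and Ttk did not rise.
Plk1 (chr7:122159235-122159434, plus strand): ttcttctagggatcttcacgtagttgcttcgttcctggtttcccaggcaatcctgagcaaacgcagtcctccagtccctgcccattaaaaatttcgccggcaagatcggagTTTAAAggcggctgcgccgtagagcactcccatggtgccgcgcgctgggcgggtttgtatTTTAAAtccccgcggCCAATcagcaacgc
Ncapg (chr5:45669725-45669924, plus strand): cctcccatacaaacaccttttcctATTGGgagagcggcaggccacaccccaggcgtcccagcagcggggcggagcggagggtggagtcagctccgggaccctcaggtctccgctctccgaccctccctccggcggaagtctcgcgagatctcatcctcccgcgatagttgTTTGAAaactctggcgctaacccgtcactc
Bub1 (chr2:127831860-127832059, minus strand): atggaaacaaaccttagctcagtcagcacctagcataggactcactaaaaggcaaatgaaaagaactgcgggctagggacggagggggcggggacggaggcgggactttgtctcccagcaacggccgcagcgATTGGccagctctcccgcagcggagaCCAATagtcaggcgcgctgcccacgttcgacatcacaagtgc
Nuf2 (chr1:169531465-169531664, minus strand): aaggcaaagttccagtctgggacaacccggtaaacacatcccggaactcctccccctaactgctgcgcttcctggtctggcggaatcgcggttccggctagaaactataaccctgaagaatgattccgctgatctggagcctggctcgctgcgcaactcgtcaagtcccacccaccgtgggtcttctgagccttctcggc
Ttk (chr9:83834489-83834688, plus strand): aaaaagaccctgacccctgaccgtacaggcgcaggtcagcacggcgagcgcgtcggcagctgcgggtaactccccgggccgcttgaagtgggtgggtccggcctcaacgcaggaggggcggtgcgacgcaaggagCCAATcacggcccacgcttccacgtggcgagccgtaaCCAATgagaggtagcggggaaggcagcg

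Counted from its first letter, Plk1 holds TTTAAA 29 and 89 bases before the start and CCAAT at 14, and Ncapg holds TTTGAA at 30 and ATTGG at 176. Bub1 holds CCAAT at 42 and ATTGG at 68, and no TTT word. Ttk holds CCAAT at 28 and 65, and Nuf2 holds none of the words in this stretch. Over the 46 members with a promoter, the average A5 change had a median of 1.46 for the 23 with a TTT word and 1.42 for the 23 without, and of 1.36 for the 33 with CCAAT and 1.46 for the 13 without. Members with and without these words thus had close medians.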

How the data were processed

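RNA of 12 sorted-cell libraries was sequenced after SMART-Seq v4 and ThruPLEX preparation, per the labels' protocols. The deposited values are raw read counts per gene, made with bcl2fastq, Trimmomatic 0.36, STAR and featureCounts on mm10 (GRCm38), per the submitters' processing notes. No annotation release, strand setting or treatment of multi-mapping reads is given in the sources used here. Of 55341 rows, 26 whose symbols had become dates were left out (0.11 to 0.128% of counts). Replicates differed by more than counting error in every group. What separates them (mice, sort or run) is not fully given, so p-values measure the spread between these pools.

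The 57 members, the role groups and the other lists were chosen with earlier results of these data known. The counts were tested with edgeR 4.0.16 in R 4.3.3 (TMM factors of 0.919 to 1.08, filterByExpr by group, quasi-likelihood F test, 1 model of 4 groups over 12 libraries), with Benjamini-Hochberg adjustment over 16677 genes and a threshold of 0.05. Fold changes are log2 with standard errors. There were 6 comparisons. In each role the text gives library values for the 2 members with the largest and the 1 with the smallest averaged A5 change and for members called in neither genotype. Of the other lists it names the 2 genes with the smallest p.

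Same-numbered libraries deviated together from their group means. Over 9071 genes the 18 same-number correlations were 0.153 to 0.722, all above 0.1. The 36 others had a median of -0.238 and reached 0.315, above the lowest same-number value. Deviations from a group mean cancel within the group, so positive same-number values push the others below 0, and their median is no separate support. From the same-number values the numbers were taken to pair the libraries. The fit with the replicate number as a block is given where it changes a call of a named member or a printed count of a list. Genotype counts of the marker lists, with or without the block, are not given. Alternatives were DESeq2 1.42.0, limma 3.58.1 (voom with quality weights), RLE size factors, other filters, the libraries compared alone and each library or number left out. The code was tested on simulated data. Gene positions are from GENCODE M21 (GRCm38). A level check of 1 further gene is not reported here.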

Additional observations from a re-analysis of the deposited data

How the results depend on the processing

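The named members' results were counted per gene and fit, and a member that stayed uncalled counted as kept. Over all alternatives, their averaged A5 effects kept direction and threshold side in 827 such results, lost the call in 7 and turned sign in 2. Within RORgt-deficient mice these numbers were 813, 43 and 2, and within WT they were 692, 69 and 22, with 75 calls gained. The calls of Cdk1 (1.69), Birc5 (1.82), Cdca2 (0.65), Ube2c (1.74), Ckap2 (0.88) and Hmgb2 (0.51) ended without replicate 3 in all groups, and that of Hmgb2 (0.46) without replicate 1 in all groups, where no block was fitted. The count of members higher in WT, 47 in the fit of all libraries, was 12 to 50 when 1 library was left out (46 to 55 with the replicate block), and in RORgt-deficient mice it was 46 to 55 (55 with the block in each case). Without replicate 1, 2 or 3 in all groups the WT count was 7, 31 and 0, and 45, 39 and 49 with the block. The RORgt-deficient count without replicate 3 in all groups was 2 (53 with the block), and the averaged count was 44. DESeq2 called 54 and voom 53 members higher in WT, and DESeq2 called 1 lower in RORgt-deficient A5-negative cells. The share of all genes called was not taken in the DESeq2, voom and leave-out fits, so these member counts stand without that background. The WT median change of 1.32 was 1.28 with RLE size factors, DESeq2 or the stricter filter, and 1.29 with the libraries compared alone. It was 1.16 to 1.39 when 1 library was left out (1.14 to 1.42 with the block), and 1.27 or 1.26 without replicate 2 or 3 in all groups, with the block too. The averaged median was 1.32 to 1.5 (1.31 to 1.5 with the block, and 1.35 with the block without replicate 3 in all groups), the RORgt-deficient one 1.38 to 1.73 and that of the interaction 0.08 to 0.45. The sign of Pttg1 in WT turned with RLE (-0.01), DESeq2 (0.00), voom (-0.02), the stricter filter (-0.01), single libraries left out (-0.13 to 0.11, and -0.12 to 0.12 with the block, -0.03 among them), replicate 1 left out in all groups (-0.12) and, with the block, RORgt-deficient replicate 2 left out in both fractions (0.00, an alternative chosen after seeing the data). Its averaged change was -0.02 without replicate 1 in all groups. Ttk in RORgt-deficient mice turned without RORgt-deficient A5-negative replicate 2, in a range of -0.07 to 0.21 (-0.05 to 0.19 with the block) over single libraries left out. The causes were not tested. Counting error was largest for the lowest member count in a library, 53.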
